A study of Danio rerio with 18 samples.

Results

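Heparan sulfate is a long sulfated sugar chain that cells attach to core proteins at their surface and in the matrix. The genes described here encode the enzymes that build and trim this chain and the glypican and syndecan core proteins that carry it. They were chosen by gene symbol from the probe-to-gene table of the array, and 42 of the 19260 genes with a probe set of their own met the rule. By family they were 1 xylosyltransferase gene, 4 ext and 2 extl genes for chain synthesis, 4 ndst, 2 glce, 2 hs2st, 5 hs6st and 7 hs3st genes for chain modification, 3 sulf genes for sulfate removal, 7 glypican genes, 3 syndecan genes and 2 genes of syntenins. Syntenins (sdcbp and sdcbp2) are adaptor proteins that bind the tails of syndecans, and they carry no chain themselves. Where a gene had more than 1 probe set, which was true of 4 genes, it was represented by the probe set whose mean over the 18 arrays was highest.

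RNA came from lateral line primordium cells of zebrafish embryos younger than 3 days, with 18 arrays in 3 groups of 6. The primordium is an epithelial cluster that moves down the side of the embryo, leaving sensory organs behind. FGF overexpression embryos carried 4 transgenes, cldnb:lynGFP, cxcr4b:nls-tdTomato, the cxcr4b:LexPR driver and lexOP:Fgf3-GFP, and were given 10 µM RU486, the drug that activates the driver, with 0.1% DMSO. SU5402 embryos carried only cldnb:lynGFP and cxcr4b:nls-tdTomato and were given 1 µM SU5402, an inhibitor of the FGF receptor tyrosine kinase, together with the same RU486 and DMSO. Control embryos had those same 2 transgenes with RU486 and DMSO, although their treatment label reads untreated, so every group received RU486 and DMSO. The cxcr4b promoter decides where Fgf3 is made, and the 2 added transgenes cannot be told apart from Fgf3 itself. The labels call the arrays biological replicates and do not say how many embryos went into each or how the cells were isolated. The comparisons ask how these genes differ with less or with more FGF signalling.

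The chain is built in the Golgi. A xylosyltransferase starts a short linker on the core protein, and Ext proteins extend it with alternating sugars. Ndst enzymes then replace acetyl groups by sulfate, Glce turns part of the glucuronic acid into iduronic acid, and Hs2st, Hs6st and Hs3st add sulfate at further positions. Outside the cell, Sulf enzymes remove some of the 6-O-sulfate. FGF ligands need heparan sulfate as a co-receptor to bind and activate their receptors, and the sulfation pattern affects which ligands bind. In zebrafish, loss of heparan sulfate chain synthesis is known to disturb FGF and Wnt signalling in the lateral line primordium.

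Signals are log2 values, and a change is the difference between 2 group means on that scale, first-named group minus second. A change passed when its limma adjusted p was at most 0.05. Array medians lay between 5.89 and 5.99. On the second principal component, which held 11% of the variance, control arrays 5 and 6 stood apart with scores of -72.6 and -63.9, against -30 to 22.5 for the other control arrays. The SU5402 arrays ran from -31.4 to 33 on it and the FGF overexpression arrays from -11.8 to 47.5, with replicate 6 lowest in both groups. The labels were checked against known FGF genes. The ligand gene fgf3 averaged 12.39 under FGF overexpression, 9.11 in SU5402 arrays and 7.12 in control arrays. The FGF target gene etv4 averaged 10.99, 5.73 and 9.26 in the same order of groups. Another target gene, dusp6, averaged 10.61, 9.27 and 9.24, and did not pass under SU5402 (change 0.03, adjusted p = 0.916). These are bulk samples, in which fewer cells of a type and less RNA per cell cannot be told apart.

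Under SU5402, 12 of the 42 heparan sulfate genes passed against control (28.6%), where 14.7% of all named genes did. The genes that rose were the glypican genes gpc1b and gpc3, the epimerase gene glceb, the sulfotransferase genes hs3st3b1a, hs3st3b1b and ndst1a, and the chain synthesis genes extl2 and ext1a. These 8 rises compare with 6.57% higher over all named genes. The 4 that fell were gpc1a, sulf1, ndst3 and xylt1, against 8.13% lower over all named genes. The median change was 0.02 over the 42 genes and 0.01 over all named genes. With control arrays 5 and 6 left out, 7 rose and 2 fell (with 5.50% of named genes higher and 6.47% lower in that fit), as extl2, ndst3 and xylt1 no longer passed (adjusted p = 0.0581, 0.234 and 0.0744).

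Under FGF overexpression, 5 of the 42 genes passed against control (11.9%), where 5.89% of all named genes did. The glypican gene gpc4 rose, with 3.41% of named genes higher. The genes that fell were sulf1, ndst1a, hs6st1b and hs3st3b1a, with 2.48% of named genes lower. The median change was -0.07, against -0.01 over all named genes. With control arrays 5 and 6 left out the counts were 2 higher and 4 lower (with 2.64% and 1.83% over named genes), ndst3 being the added rise (0.67, adjusted p = 0.0479). With all arrays fitted, ndst3 changed by 0.42 and did not pass (adjusted p = 0.270). Control arrays 5 and 6 held its highest control signals (7.71 and 7.51), so leaving them out lowers the control mean of ndst3.

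Directly between the treatments, 18 of the 42 genes passed for FGF overexpression minus SU5402 (42.9%), where 24.4% of all named genes did. Of these 12 were lower under FGF overexpression, with 11.9% of named genes lower, and 6 were higher, with 12.5% of named genes higher. The lower genes were gpc1b, gpc3, glceb, ndst1a, ndst2a, hs3st3b1a, hs3st3b1b, hs6st1a, hs6st1b, hs6st3a, extl2 and ext1a. The higher genes were gpc1a, gpc4, ndst2b, ndst3, hs6st2 and xylt1. The median change was -0.05, against -0.02 over all named genes. The 2 comparisons with control share the same 6 control arrays, and their values for a gene are given side by side below.

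Glypicans are core proteins held to the membrane by a lipid anchor. Under SU5402, gpc1b and gpc3 rose and gpc1a fell, whereas gpc4 passed only in the comparisons with FGF overexpression. The gpc1b signal ran from 8.97 to 9.71 (median 9.21) on SU5402 arrays, against 6.45 to 7.01 (median 6.77) on control arrays. All SU5402 arrays lay above all control arrays, and the rise was 5.63-fold (log2 change 2.49, SE 0.14, adjusted p = 1.28e-09). On FGF overexpression arrays gpc1b ran from 6.29 to 7.01 (median 6.62), which overlaps control (change -0.08, adjusted p = 0.849). Its second probe set gave the same picture, with a change of 2.03 (SE 0.13, adjusted p = 3.60e-09) in SU5402 arrays and -0.09 (adjusted p = 0.792) in FGF overexpression arrays.

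The paralog gpc1a went the other way. Its signal ran from 7.48 to 7.94 (median 7.58) on SU5402 arrays, against 8.19 to 9.28 (median 8.81) on control arrays, without overlap. The fall was 2.22-fold (log2 change -1.15, SE 0.16, adjusted p = 8.55e-05). FGF overexpression arrays ran from 8.59 to 9.34 (median 9.0) and overlapped control (change 0.21, adjusted p = 0.589). The 2 gpc1 genes thus moved in opposite directions on the same SU5402 arrays.

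The neighbouring glypican genes gpc3 and gpc4 also differed. In the zebrafish assembly GRCz12tu, hs6st2, gpc4 and gpc3 are consecutive protein-coding genes on chromosome 14. The gpc3 signal ran from 8.32 to 8.89 (median 8.46) on SU5402 arrays, against 6.96 to 7.59 (median 7.41) on control arrays. It rose 2.27-fold without overlap (log2 change 1.18, SE 0.11, adjusted p = 7.70e-07), and under FGF overexpression its change was -0.28 (adjusted p = 0.210). The gpc4 gene, known as knypek in zebrafish, is needed for convergence and extension movements in the gastrula. Its signal ran from 8.83 to 9.28 (median 9.04) on FGF overexpression arrays, against 7.93 to 8.55 (median 8.46) on control arrays. It rose 1.61-fold without overlap (log2 change 0.69, SE 0.10, adjusted p = 0.000349). On SU5402 arrays gpc4 ran from 8.12 to 8.41 (median 8.28), within the control range (change -0.09, adjusted p = 0.717).

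The other glypican genes did not pass in any comparison. The signal of gpc2 ran from 6.18 to 6.72 under FGF overexpression, from 6.42 to 6.78 under SU5402 and from 6.33 to 6.66 in control. For gpc6a and gpc6b the group means, 5.74 to 5.89 and 4.64 to 4.67, did not exceed the median over all probe sets, called the median level here (5.90 in FGF overexpression, 5.95 in SU5402 and 5.91 in control). At such levels a change can be hidden by background, and folds against a group at or below that median are written as at least.

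**Figure D1:**
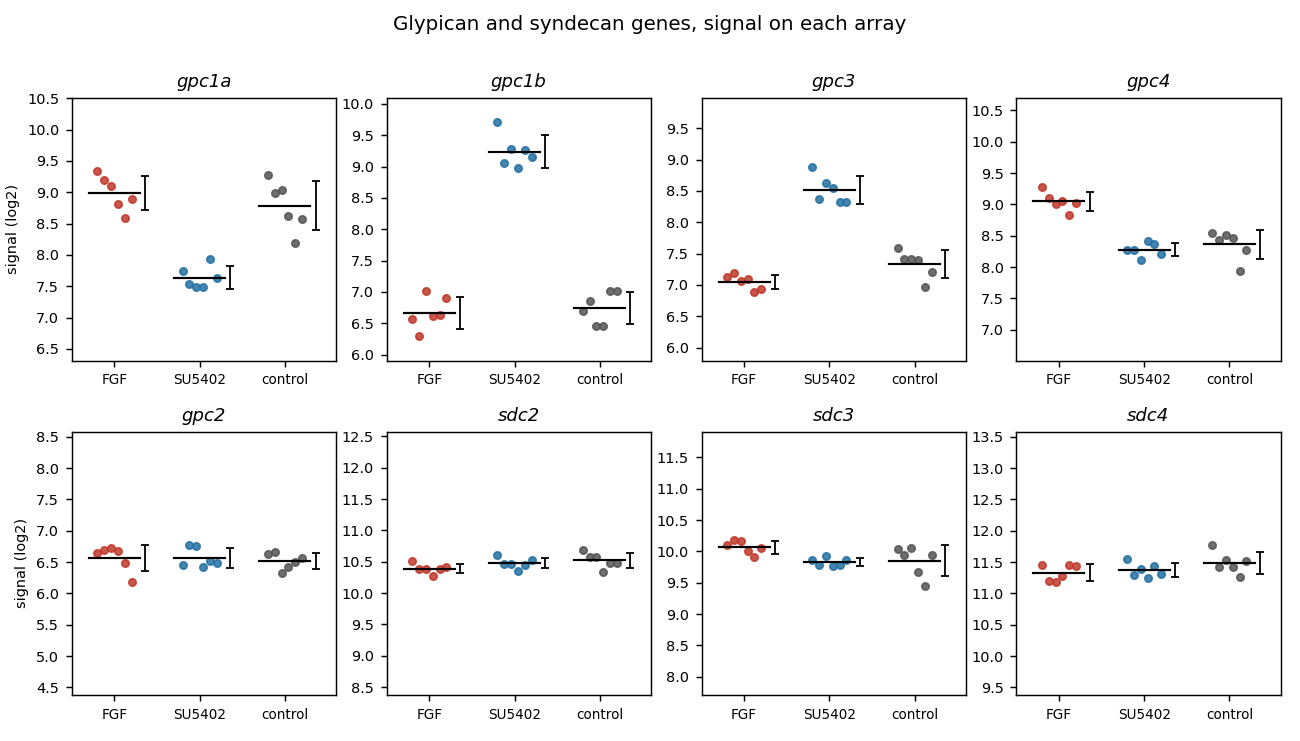
Signal (log2, vertical axis, with the same span in every panel) of 5 glypican and 3 syndecan genes on each array, for FGF overexpression (FGF), SU5402 and control. Points are arrays (n = 6 per group), horizontal lines are means and bars are SD. SU5402 arrays stand above the rest for gpc1b and gpc3 and below them for gpc1a, FGF overexpression arrays stand above the rest for gpc4, and the syndecan groups overlap.

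Syndecans are core proteins that span the membrane. None of the 3 syndecan genes passed in any comparison, and their intervals were narrow. Of all named genes 27.3% passed in at least 1 comparison. The sdc4 signal ran from 11.18 to 11.46 under FGF overexpression, from 11.24 to 11.55 under SU5402 and from 11.26 to 11.78 in control. Its change was -0.12 under SU5402 (95% interval -0.31 to 0.07) and -0.16 under FGF overexpression (-0.35 to 0.03). For sdc2 the changes were -0.04 (-0.19 to 0.11) and -0.13 (-0.28 to 0.02). For sdc3 they were -0.02 (-0.22 to 0.19) and 0.22 (0.01 to 0.42, adjusted p = 0.276). The change of sdc3 for FGF overexpression minus SU5402 was 0.23 (adjusted p = 0.115). It passed when only the 2 compared groups were fitted (adjusted p = 0.0417). It also passed without control array 5 (adjusted p = 0.0420) and without control arrays 5 and 6 (adjusted p = 0.04997). The intervals of sdc2 and sdc4 leave out changes of the size seen for gpc1b, gpc3 and gpc1a under SU5402. The syntenin genes sdcbp2 and sdcbp did not pass either, with changes of -0.07 and 0.03 under SU5402 and of 0.01 and 0.10 under FGF overexpression. The sdcbp means, 5.73 to 5.83, were at or below the median level.

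Among the genes that start and extend the chain, extl2 and ext1a rose and xylt1 fell under SU5402, and none passed under FGF overexpression against control. The xylosyltransferase gene xylt1 ran from 6.30 to 6.84 (median 6.49) on SU5402 arrays, against 6.78 to 7.21 (median 6.91) on control arrays. The groups overlapped by 1 SU5402 array, and the fall was 1.36-fold (log2 change -0.45, SE 0.11, adjusted p = 0.0102). The extl2 gene, whose mammalian counterpart can end chain growth at the linker, ran from 6.56 to 7.21 (median 6.88) on SU5402 arrays, against 5.87 to 6.54 (median 6.20) on control arrays. All SU5402 arrays lay above control, by 1.58-fold (log2 change 0.66, SE 0.15, adjusted p = 0.00642). The polymerase gene ext1a ran from 7.87 to 8.10 (median 8.0) on SU5402 arrays, against 7.40 to 7.92 (median 7.66) on control arrays. Its rise was small and the groups overlapped (log2 change 0.35, SE 0.09, adjusted p = 0.0157), and its second probe set did not pass (0.20, adjusted p = 0.563). Leaving out replicate 1, 2 or 4 of every group also ended the call (adjusted p = 0.0654, 0.0950 and 0.0780).

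Under FGF overexpression the changes against control were -0.12 for xylt1, -0.04 for extl2 and 0.06 for ext1a (adjusted p = 0.656, 0.939 and 0.788). For FGF overexpression minus SU5402 they were 0.33, -0.70 and -0.28 (adjusted p = 0.0402, 0.00246 and 0.0332). That call for xylt1 was lost without any 1 of SU5402 arrays 1 to 5 or FGF overexpression arrays 1, 5 and 6 (adjusted p between 0.0549 and 0.0925). The xylt1 call was also lost when only the 2 compared groups were fitted (adjusted p = 0.0642) and with array weights (adjusted p = 0.0600). Leaving out replicate 1, 2, 3, 4 or 5 of every group ended the xylt1 call as well (adjusted p between 0.0660 and 0.144). The call for ext1a was lost without any 1 of SU5402 arrays 1, 2 and 4 or FGF overexpression arrays 1, 5 and 6 (adjusted p between 0.0552 and 0.0796). Leaving out any 1 replicate number of every group ended the ext1a call too (adjusted p between 0.0527 and 0.127). It was also lost with array medians made equal (adjusted p = 0.0897), and the second ext1a probe set did not pass (-0.16, adjusted p = 0.578). The other polymerase genes ext1b, ext1c and ext2 and the initiating enzyme gene extl3 had changes of -0.12, -0.05, -0.09 and 0.03 under SU5402. Under FGF overexpression their changes were -0.05, -0.11, -0.04 and 0.27. None of these 8 changes passed. Of the 4 chain polymerase genes only ext1a passed in any comparison, where 27.3% of all named genes passed in at least 1.

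The N-deacetylase/N-sulfotransferase genes, whose enzymes act first in modifying the chain, split by paralog. The ndst1a signal ran from 8.64 to 8.96 (median 8.75) on SU5402 arrays, against 7.41 to 7.67 (median 7.5) on control arrays. It rose 2.41-fold without overlap (log2 change 1.27, SE 0.11, adjusted p = 2.42e-07). On FGF overexpression arrays it ran from 6.48 to 7.21 (median 6.58), also without overlap with control, and fell by 0.79 on the log2 scale (1.73-fold, SE 0.11, adjusted p = 0.000169). The 3 groups were therefore separate for ndst1a, with FGF overexpression 4.18-fold below SU5402 (log2 change -2.06, SE 0.11, adjusted p = 1.32e-10).

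The ndst3 gene had its lower signals under SU5402. It ran from 6.21 to 7.03 (median 6.43) on SU5402 arrays, against 6.40 to 7.71 (median 7.11) on control arrays. The groups overlapped (log2 change -0.64, SE 0.19, adjusted p = 0.0381). The call was lost without any 1 of control arrays 3, 5 and 6 or SU5402 arrays 1 to 5 (adjusted p between 0.0623 and 0.0936), and when only the 2 compared groups were fitted (adjusted p = 0.0865). Leaving out replicate 2, 3, 4 or 5 of every group also ended it (adjusted p between 0.0827 and 0.159). On FGF overexpression arrays ndst3 ran from 7.25 to 7.74 (median 7.63), all above the SU5402 arrays (change 1.06, SE 0.19, adjusted p = 0.000461). For ndst2b the change for FGF overexpression minus SU5402 was 0.58 (SE 0.12, adjusted p = 0.00253), at least 1.49-fold since its SU5402 mean of 5.90 was at or below the median level. For ndst2a that change was -0.30 (SE 0.08, adjusted p = 0.0200), and the call was lost without SU5402 array 3 (adjusted p = 0.0516). The call was also lost with array medians made equal (adjusted p = 0.0573). Leaving out replicate 1, 3 or 6 of every group ended it too (adjusted p = 0.0806, 0.0990 and 0.0580). Against control, ndst2a changed by 0.01 under SU5402 (adjusted p = 0.973) and by -0.29 under FGF overexpression (adjusted p = 0.0673), and ndst2b by -0.15 and 0.43 (adjusted p = 0.578 and 0.0586). Between FGF overexpression and control the ndst2a signals did not overlap (8.66 to 8.79 against 8.92 to 9.14). There ndst2a passed without SU5402 array 1 or 3 (adjusted p = 0.0449 and 0.0473), and ndst2b without control array 6, SU5402 array 1 or SU5402 array 2 (adjusted p = 0.0199, 0.0352 and 0.0492). Both passed with array weights (adjusted p = 0.0491 and 0.0438) and with dim probe sets left out (adjusted p = 0.0303 and 0.0292). When only the 2 compared groups were fitted, ndst2a passed (adjusted p = 0.0308), as it did with a trended and robust variance (adjusted p = 0.0423). With identical probe sets tested once, ndst2b passed (adjusted p = 0.0489).

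Glucuronyl C5-epimerase makes the iduronic acid that 2-O-sulfation needs. Of its 2 genes, glceb rose under SU5402. The glceb signal ran from 8.73 to 9.04 (median 8.82) on SU5402 arrays, against 6.75 to 7.03 (median 6.84) on control arrays. The groups were far apart, at 3.95-fold (log2 change 1.98, SE 0.10, adjusted p = 3.18e-10). FGF overexpression arrays ran from 6.34 to 7.02 (median 6.67) and overlapped control (change -0.22, adjusted p = 0.309). The paralog glcea did not pass, with changes of 0.21 under SU5402 (95% interval -0.01 to 0.43) and -0.01 under FGF overexpression (-0.23 to 0.21). The 2-O-sulfotransferase genes hs2st1a and hs2st1b did not pass in any comparison. Their changes were 0.11 (-0.14 to 0.36) and -0.07 (-0.29 to 0.15) under SU5402, and -0.06 (-0.31 to 0.20) and -0.18 (-0.40 to 0.04) under FGF overexpression.

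Among the 5 genes of 6-O-sulfotransferases, 4 passed for FGF overexpression minus SU5402, where 24.4% of all named genes did. Against control, hs6st1b passed under FGF overexpression (5.89% of named genes passed) and none passed under SU5402 (14.7% of named genes passed). The hs6st1b signal ran from 7.14 to 7.66 (median 7.62) on FGF overexpression arrays, against 7.93 to 8.31 (median 8.01) on control arrays. It fell 1.44-fold without overlap (log2 change -0.53, SE 0.09, adjusted p = 0.00183), and SU5402 arrays ran from 8.15 to 8.44 (median 8.26), with a change of 0.23 against control (adjusted p = 0.154). For hs6st1a the signal ran from 5.89 to 6.84 (median 6.19) under FGF overexpression, against 7.0 to 7.65 (median 7.26) under SU5402, with control between at 6.44 to 7.38 (median 6.70). It was 2.03-fold lower under FGF overexpression than under SU5402 (log2 change -1.03, SE 0.17, adjusted p = 0.000255).

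For hs6st3a the signal ran from 5.06 to 5.6 (median 5.24) under FGF overexpression, against 6.03 to 6.62 (median 6.29) under SU5402. The FGF overexpression arrays were lower by at least 2.03-fold, without overlap (log2 change -1.02, SE 0.16, adjusted p = 0.000135). Against control, hs6st1a and hs6st3a changed by 0.46 and 0.48 with SU5402 (adjusted p = 0.117 and 0.0762) and by -0.57 and -0.55 under FGF overexpression (adjusted p = 0.0747 and 0.0671). Neither passed as fitted, and several alternatives moved them past the threshold. Without control array 1 both passed under SU5402 (adjusted p = 0.0324 and 0.00310). Without control array 5 both passed under FGF overexpression (adjusted p = 0.0489 and 0.0304), as did hs6st1a without FGF overexpression array 3 (adjusted p = 0.0193). With no array left out, hs6st3a passed under SU5402 with array weights (adjusted p = 0.0456) and under FGF overexpression with the replicate number as a block (adjusted p = 0.0477). Leaving out dim probe sets let hs6st1a pass under FGF overexpression (adjusted p = 0.0393). The hs6st2 gene had the opposite sign, at 8.88 to 9.39 (median 9.16) under FGF overexpression against 8.53 to 8.85 (median 8.73) under SU5402 (log2 change 0.43, SE 0.11, adjusted p = 0.00938). The hs6st3b means, 4.74 to 4.90, were at or below the median level, and the gene did not pass.

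The 3-O-sulfotransferases add the rarest of these sulfate groups. Both hs3st3b1 genes rose under SU5402, and the other 5 hs3st genes did not pass in any comparison. Of all named genes 6.57% rose under SU5402, and 27.3% passed in at least 1 comparison. The hs3st3b1a signal ran from 10.5 to 10.73 (median 10.63) on SU5402 arrays, against 8.52 to 9.35 (median 9.02) on control arrays. It rose 3.11-fold without overlap (log2 change 1.64, SE 0.15, adjusted p = 2.93e-07). On FGF overexpression arrays it ran from 7.90 to 8.74 (median 8.44), overlapping control, and fell 1.52-fold (log2 change -0.60, SE 0.15, adjusted p = 0.0213). That fall did not pass without any 1 of control arrays 2 and 4 or FGF overexpression arrays 1 and 2 (adjusted p between 0.0511 and 0.0577), or when only the 2 compared groups were fitted (adjusted p = 0.0735). Nor did it pass without replicate 1, 2, 4 or 6 of every group (adjusted p between 0.0657 and 0.135).

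The hs3st3b1b signal ran from 9.32 to 9.72 (median 9.54) on SU5402 arrays, against 8.75 to 8.95 (median 8.87) on control arrays. It rose 1.6-fold without overlap (log2 change 0.68, SE 0.10, adjusted p = 0.000149), and changed by -0.15 under FGF overexpression (adjusted p = 0.510). Of the 5 others, hs3st1 had changes of 0.03 under SU5402 and -0.21 under FGF overexpression, and for FGF overexpression minus SU5402 it passed without SU5402 array 2 (adjusted p = 0.0315, against 0.131 with it). The means of hs3st1l2, hs3st2, hs3st3l and hs3st4 did not exceed the median level in any group.

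The extracellular 6-O-endosulfatase gene sulf1 fell in both treatments. Sulf enzymes are known to dampen FGF signalling by removing sulfate from the chain. The sulf1 signal ran from 6.21 to 7.21 (median 6.76) on FGF overexpression arrays, against 7.72 to 8.32 (median 8.09) on control arrays. It fell 2.45-fold without overlap (log2 change -1.29, SE 0.18, adjusted p = 0.000124). On SU5402 arrays it ran from 6.83 to 7.88 (median 7.25) and fell 1.73-fold with some overlap (log2 change -0.79, SE 0.18, adjusted p = 0.00584). Both falls are measured against the same control arrays. FGF overexpression minus SU5402 was -0.50 (SE 0.18, adjusted p = 0.0591), and it passed without SU5402 array 4, FGF overexpression array 5 or FGF overexpression array 6 (adjusted p = 0.0292, 0.0414 and 0.0294). It also passed with the replicate number as a block (adjusted p = 0.0168), with array weights (adjusted p = 0.0392) and with dim probe sets left out (adjusted p = 0.0330).

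The sulf2a gene had the widest spread of the 42. It ran from 5.95 to 7.27 (median 6.67) under FGF overexpression, from 6.45 to 8.24 (median 7.24) under SU5402 and from 6.69 to 8.26 (median 7.53) in control. In each group replicate 1 was the lowest array and replicate 6 the highest. Its changes were -0.84 under FGF overexpression (95% interval -1.47 to -0.20, adjusted p = 0.157) and -0.34 under SU5402 (-0.98 to 0.30, adjusted p = 0.600). For sulf2b they were -0.14 (-0.46 to 0.18) and 0.04 (-0.28 to 0.36), and neither gene passed in any comparison as fitted. With the replicate number as a block, sulf2a passed under FGF overexpression against control (adjusted p = 0.00210) and against SU5402 (adjusted p = 0.0182).

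**Figure D2:**
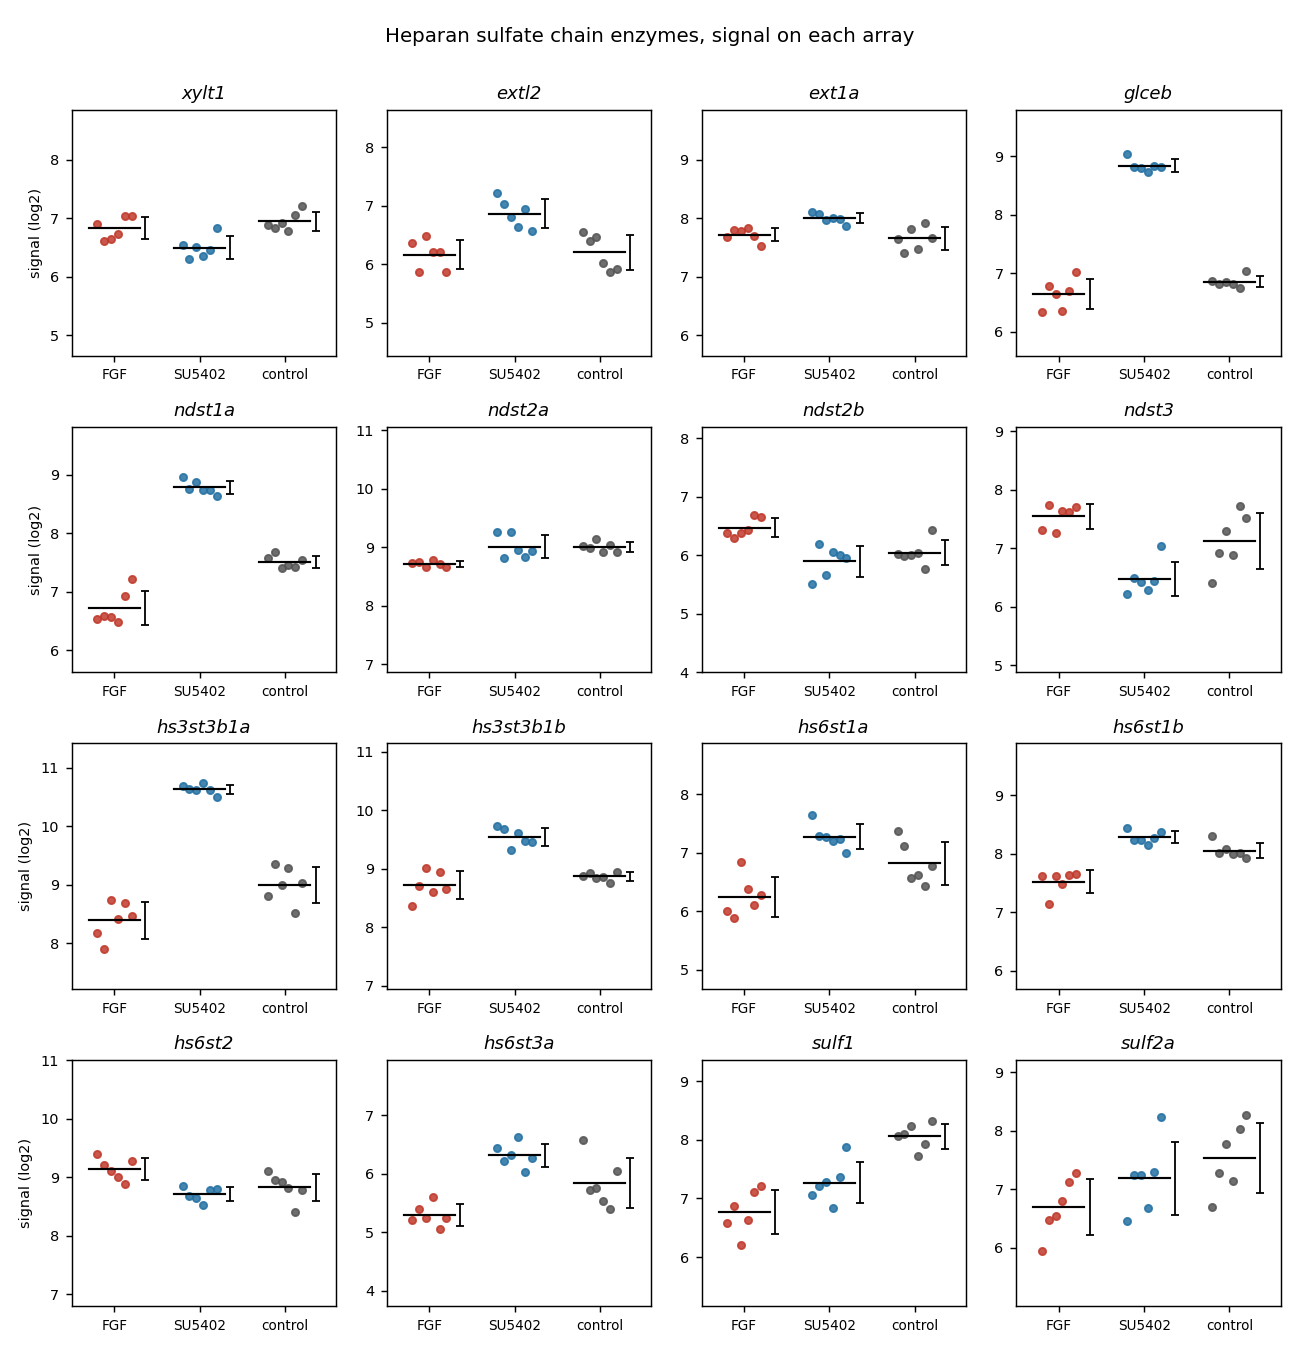
Signal (log2, vertical axis, with the same span in every panel) of 16 genes for chain synthesis, modification and sulfate removal on each array, for FGF overexpression (FGF), SU5402 and control. Points are arrays (n = 6 per group), horizontal lines are means and bars are SD. SU5402 arrays stand apart above the rest for glceb, ndst1a, hs3st3b1a and hs3st3b1b, and control arrays have the highest mean for sulf1.

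Of the 42 genes, 19 passed in at least 1 comparison (45.2%) and 23 in none, where 27.3% of all named genes passed in at least 1. No gene for 2-O-sulfation, a syndecan or a syntenin was among the 19. The 23 had changes between -0.34 and 0.21 under SU5402 and between -0.84 and 0.27 under FGF overexpression. The 42 genes lie on 18 chromosomes of the GRCz12tu table, and apart from the run on chromosome 14 the only other neighbours among them are hs3st4 and hs3st2 on chromosome 3. In that run, which holds hs6st2, gpc4 and gpc3, the changes for FGF overexpression minus SU5402 were 0.43, 0.77 and -1.46.

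**Figure D3:**
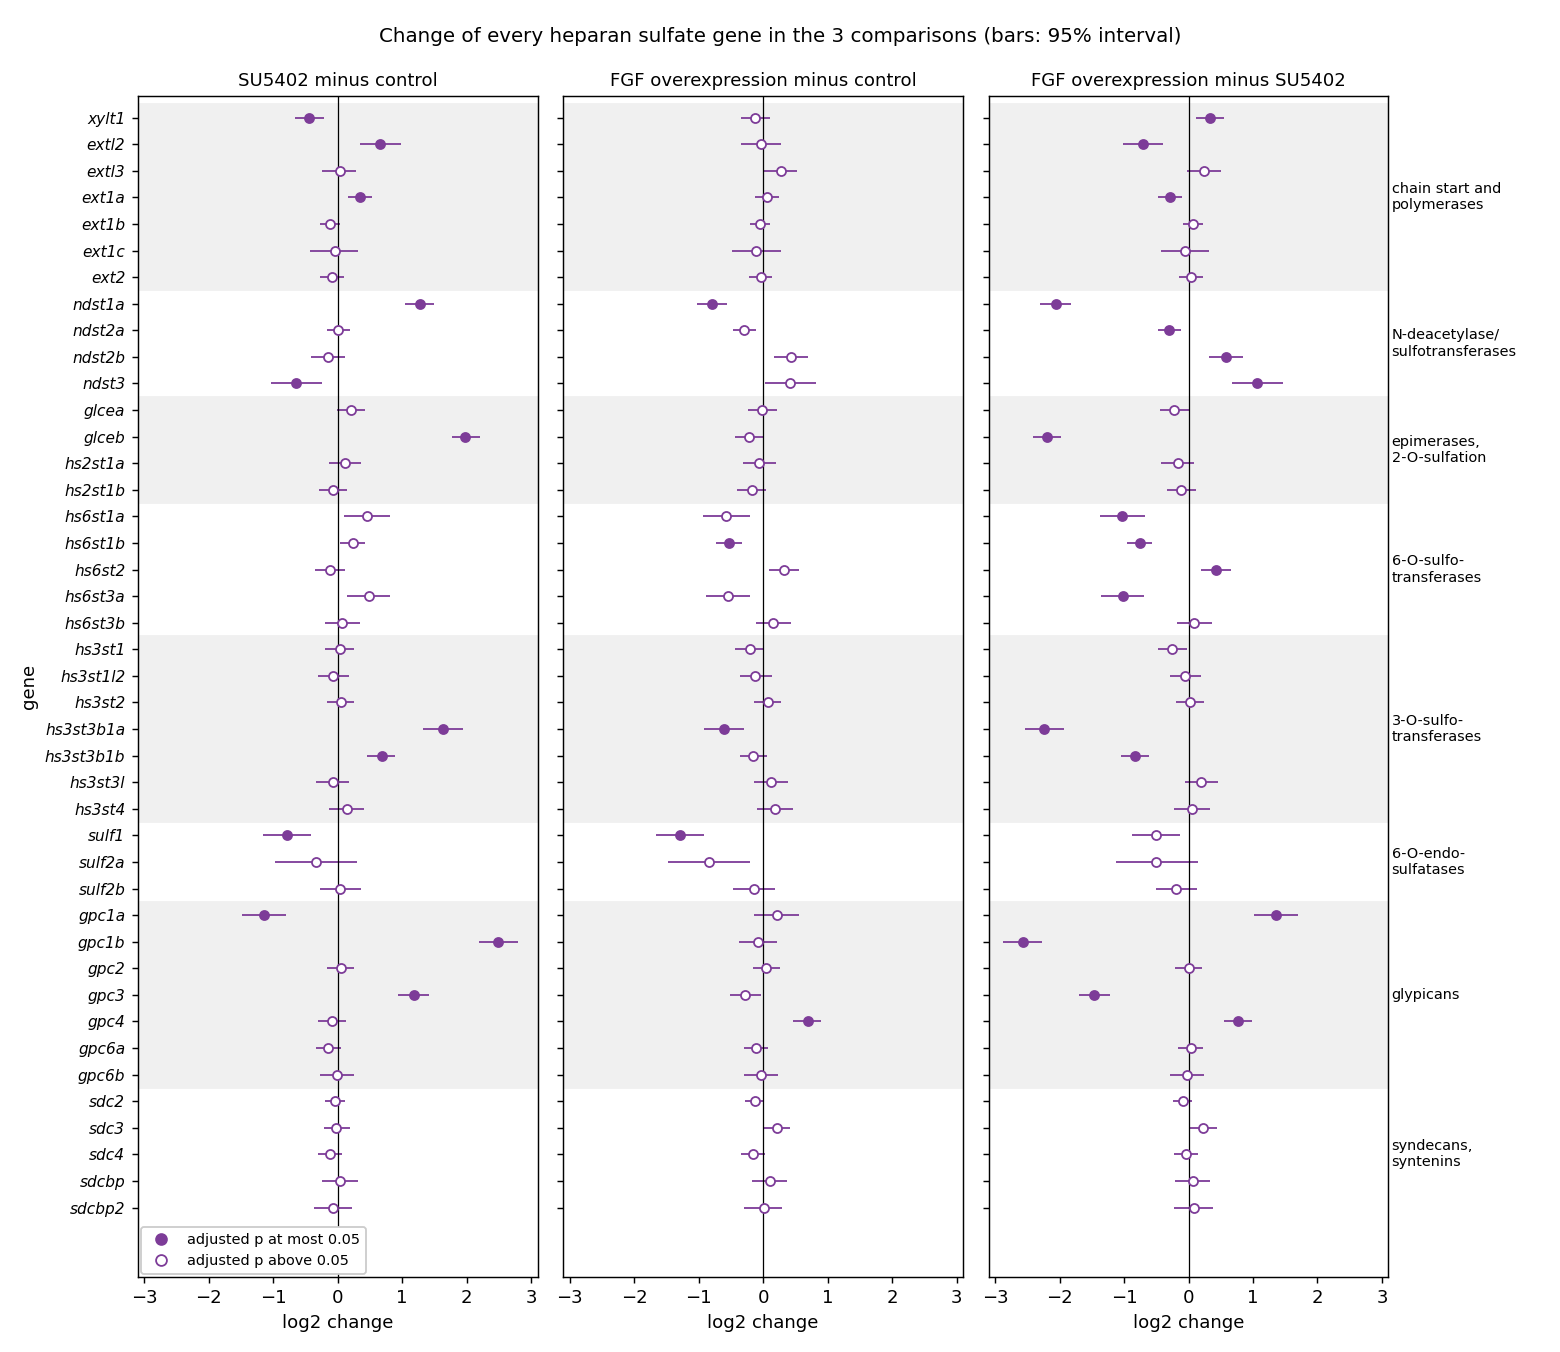
Log2 change (horizontal axis) of each of the 42 genes (rows, grouped by role) for SU5402 minus control, FGF overexpression minus control and FGF overexpression minus SU5402. Points are fitted changes with 95% intervals from 6 arrays per group, filled where the adjusted p was at most 0.05. The largest changes under SU5402 are 2.49 for gpc1b and 1.98 for glceb, and no syndecan point is filled. The sdc3 change is 0.22 for FGF overexpression minus control and 0.23 for FGF overexpression minus SU5402, with intervals just above 0.

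Genes at neighbouring steps were followed as lists. Over all named genes 6.57% rose and 8.13% fell under SU5402, and 3.41% rose and 2.48% fell under FGF overexpression. Of 18 genes for the linker, sugar precursors and the sulfate donor, slc35b3 rose and pxylp1 and fam20b fell under SU5402 (list median -0.03). Under FGF overexpression pxylp1, fam20b and papss2b rose and none fell (median 0.04). The linker kinase gene fam20b changed by -0.28 under SU5402 (adjusted p = 0.0381) and by 0.51 under FGF overexpression (adjusted p = 0.000806). The linker phosphatase gene pxylp1, whose enzyme removes the phosphate that Fam20b adds, changed by -0.72 and 0.88 (adjusted p = 9.44e-05 and 2.60e-05). The gene papss2b, for a synthase of the sulfate donor, changed by -0.10 and 0.41 (adjusted p = 0.618 and 0.0144), and slc35b3, for a Golgi transporter of that donor, by 0.38 under SU5402 (adjusted p = 0.0291).

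Of 14 other core proteins, heparanases and Notum genes, 5 rose and 2 fell under SU5402 (median 0.03), and 3 rose and 2 fell under FGF overexpression (median 0.04). The shares over all named genes were 6.57% higher and 8.13% lower under SU5402, and 3.41% and 2.48% under FGF overexpression. Notum enzymes remove the lipid from Wnt ligands and bind glypicans. The notum1a gene changed by 3.54 under SU5402 (adjusted p = 1.94e-11) and by -0.90 under FGF overexpression (adjusted p = 0.000860), and notum1b by 2.28 and 0.06 (adjusted p = 1.94e-11 and 0.819). The gene hpse2, of the heparanase family, rose under SU5402 (0.79, adjusted p = 0.000182) and fell under FGF overexpression (-1.01, adjusted p = 3.06e-05). Agrin is a heparan sulfate proteoglycan of basement membranes, and agrn changed by -0.48 under SU5402 (adjusted p = 3.72e-05) and by 0.37 under FGF overexpression (adjusted p = 0.00124). The neuropilin gene nrp1b rose under SU5402 (1.43, adjusted p = 1.68e-06), and cd44a, for a cell surface receptor that can carry heparan sulfate, rose under FGF overexpression (1.57, adjusted p = 1.65e-05).

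Chondroitin sulfate is a related chain that starts from the same linker. The counts below stand beside 6.57% of all named genes higher and 8.13% lower under SU5402. Under FGF overexpression these shares were 3.41% and 2.48%. Of 15 chondroitin and dermatan sulfate enzyme genes, dse (0.38, adjusted p = 0.00272) and chpfa (0.32, adjusted p = 0.0145) rose under SU5402, and none fell (median 0.02). Under FGF overexpression chsy1 rose (0.36, adjusted p = 0.0418) and none fell (median 0.04). Of 13 chondroitin sulfate core protein genes 4 fell under SU5402, namely vcanb (-1.31, adjusted p = 0.00190), spock2 (-0.55, adjusted p = 0.0137), spock3 (-0.40, adjusted p = 0.0469) and dcn (-0.67, adjusted p = 0.0494), with a median of -0.35. That count was 2 when only the 2 compared groups were fitted. Under FGF overexpression spock2 fell (-0.85, adjusted p = 0.000696), with a median of -0.18. As a gauge of FGF signalling, 8 of 13 FGF-ERK target genes fell and 1 rose under SU5402 (median -0.58). The 1 that rose was flrt3 (2.15, adjusted p = 1.47e-10), which changed by -0.22 under FGF overexpression (adjusted p = 0.323). Under FGF overexpression 9 rose and none fell (median 0.72), dusp6 among the rises (1.37, adjusted p = 3.15e-07).

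**Figure D4:**
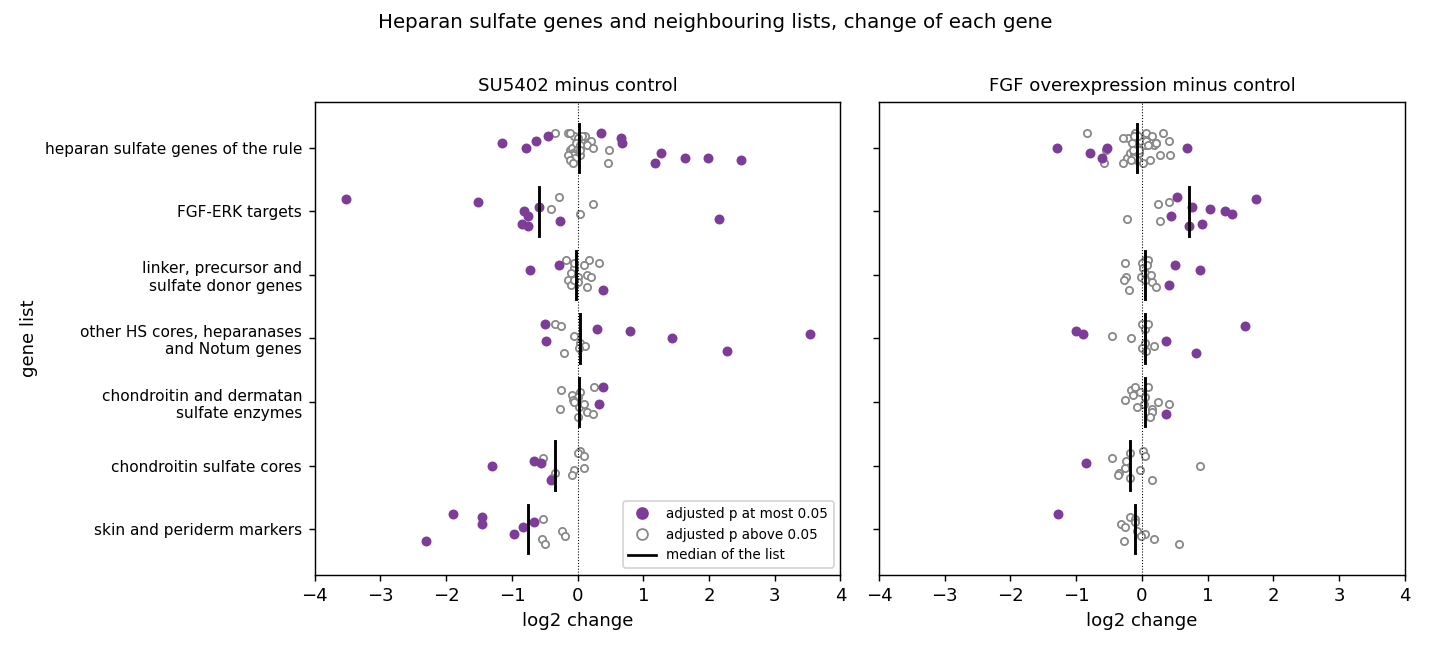
Log2 change (horizontal axis) of each gene in the 42 heparan sulfate genes, 5 neighbouring lists and the skin and periderm markers, for SU5402 minus control and FGF overexpression minus control. Points are genes, filled where the adjusted p was at most 0.05, spread vertically only to be seen, and black lines are list medians. The heparan sulfate genes spread to both sides of a median of 0.02 under SU5402, whereas the skin markers have a median of -0.75.

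Markers of other cell types were present on these arrays and some moved with the groups. Of 12 skin and periderm markers 7 fell and none rose under SU5402, and 1 fell and none rose under FGF overexpression. Their summed signal (log2) ran from 13.58 to 14.16 on SU5402 arrays, against 14.01 to 14.67 on control arrays, and from 14.38 to 14.60 under FGF overexpression. Of 5 endothelium markers 3 fell and 1 rose under SU5402, and 1 fell and 2 rose under FGF overexpression, with summed signals of 11.53 to 11.89 under FGF overexpression, 11.23 to 11.51 under SU5402 and 11.03 to 11.37 in control. None of 15 skeletal muscle markers passed in any comparison, with sums of 14.72 to 15.30, 14.53 to 15.34 and 14.70 to 15.37 in the same order.

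Among smaller marker lists, under SU5402 2 of 8 leukocyte, 2 of 8 neuron and glia and 1 of 10 mesenchyme and cartilage markers fell, and 2 of 7 erythroid markers rose. Under FGF overexpression 1 leukocyte and 2 neuron and glia markers rose. These small counts stand beside 6.57% of all named genes higher and 8.13% lower under SU5402. Under FGF overexpression the shares were 3.41% and 2.48%. The summed leukocyte signal ran from 10.03 to 11.67 under FGF overexpression, from 8.72 to 9.89 under SU5402 and from 9.88 to 11.10 in control. The neuron and glia sums were 10.19 to 10.72, 9.61 to 10.74 and 9.74 to 11.09, the mesenchyme and cartilage sums 11.21 to 11.94, 10.68 to 11.57 and 11.02 to 11.84, and the erythroid sums 12.65 to 13.35, 12.95 to 13.91 and 11.75 to 13.54. Of 16 primordium markers none was at or below the median level in control or FGF overexpression arrays, and 1 was in SU5402 arrays. Their summed signal ran from 14.38 to 14.67, from 14.48 to 14.60 and from 14.24 to 14.71. Under SU5402 3 of them rose and 6 fell, and under FGF overexpression 2 rose and 3 fell. In control arrays 3 leukocyte, 3 erythroid, 2 mesenchyme and cartilage, 1 neuron and glia and 1 endothelium markers were at or below the median level. The part of other cell types in the changes of the heparan sulfate genes was not tested.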

How the data were processed

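The deposited table holds a log2 signal for every probe set on every array. Per the submitters' processing notes, the authors obtained these by RMA in Affymetrix Power Tools (version not stated). They were used without a filter. Of 75212 probe sets, 20806 had 1 gene symbol in the platform table, 855 several and 53551 none, and genes were named only from the first kind. The sources used here do not give a genome build. No probe set of the 42 genes had the same values as another.

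Each comparison was a contrast of group means, estimated from the 18 arrays together with limma version 3.58.1 under R version 4.3.3, with a moderated two-sided test, Benjamini-Hochberg adjustment over all 75212 probe sets and a threshold of 0.05. SE and 95% intervals are those of the fit. The fit was tested on simulated data. The number of arrays limits the precision, and p-values measure the spread between these arrays. Values were described per family, and every gene past the threshold in any comparison got its values by group. Of each neighbouring list, up to 4 genes past the threshold were named by smallest p. The genes and lists were chosen with earlier results of these data known, and lists were described by counts and medians only. Alternatives were the replicate block, other fits, centring, weights, filters and single arrays left out. No sequences were used here.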

Additional observations from a re-analysis of the deposited data

Results flagged for a closer look

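In 6 of the 126 combinations of gene and group, 1 array lay far from the other 5, by Dixon's test at the 95% level. Chance flags about 1 in 20 such groups, so this number is near what chance gives. In genes with a call, the arrays were SU5402 replicate 1 for glceb, the highest at 9.04 with the next at 8.83, and FGF overexpression replicate 2 for hs6st1b, the lowest at 7.14 with the next at 7.49. A further one was SU5402 replicate 6 for ndst3, the highest at 7.03 with the next at 6.49. In genes without a call they were control replicate 5 for sdcbp2, the highest at 10.65 with the next at 9.85, control replicate 3 for hs3st2, the lowest at 4.79, and FGF overexpression replicate 2 for hs3st3l, the lowest at 4.81.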

How the results depend on the processing

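Over 33 alternatives, 3918 of 4017 values of single genes kept their side of the threshold, 63 lost a call, 36 gained one, and no called change turned its sign. Under SU5402 the calls of gpc1b, gpc1a, gpc3, glceb, ndst1a, hs3st3b1a, hs3st3b1b and sulf1 held under every alternative run. With single arrays, or 1 replicate number in all groups, left out, 7 to 10 genes rose and 3 to 4 fell under SU5402 (10 to 14 in all). Under FGF overexpression the ranges were 1 to 2 and 3 to 6 (4 to 7 in all), and for FGF overexpression minus SU5402 5 to 7 and 10 to 12 (15 to 19 in all). Over the 19260 named genes, the same fits gave 892 to 1277 higher and 1086 to 1625 lower under SU5402. Under FGF overexpression they gave 424 to 677 and 272 to 487, and for FGF overexpression minus SU5402 1945 to 2479 and 1752 to 2353. With control arrays 5 and 6 left out, chosen after seeing the data, 2 genes fell under SU5402 and 2 rose under FGF overexpression. With array weights, and with identical probe sets tested once, 2 rose under FGF overexpression. Of named genes 3.98% and 3.69% were higher in these settings, against 3.41% in the main fit. With dim probe sets left out 8 passed under FGF overexpression, 2 of them rises, while 10.5% of named genes passed and 5.81% were higher. That setting tested 13328 of the 19260 named genes. In it 24.1% of named genes passed under SU5402 and 37.1% for FGF overexpression minus SU5402, against 14.7% and 24.4% in the main fit. Dim heparan sulfate genes were left out too, so the 8 passed among fewer genes than in the main fit. Fewer probe sets were also tested with identical probe sets tested once. With the replicate block, 12, 7 and 20 genes passed in the 3 comparisons, while 16.8%, 7.56% and 26.7% of all named genes did, above the shares without the block. It added hs6st3a (adjusted p = 0.0477) and sulf2a (-0.84, adjusted p = 0.00210) under FGF overexpression, and sulf1 (adjusted p = 0.0168) and sulf2a (adjusted p = 0.0182) for FGF overexpression minus SU5402, and ended no call. Deviations from the group means correlated above 0.1 in 8 of 18 pairs of same-numbered arrays (median 0.087) and in 5 of 90 other pairs (median -0.02), and 10 of 18 arrays correlated best with an array of their own number. All same-numbered pairs correlated positively, from 0.012 to 0.226, while the other pairs ran from -0.218 to 0.144. The labels do not say that equal numbers share a source, so the main fit did not pair the arrays. Whether they share one was not tested. Signals near background limit what could be seen for the dim hs3st, hs6st3 and gpc6 genes.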
